A study of Mus musculus with 2 samples.

Results

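Among the single cells of mouse tongue tumours, 954 endothelial barcodes carried VEGF receptor transcripts and were kept apart from venular and lymphatic cells by marker limits. Such a member had at least 200 genes, under 20% mitochondrial UMIs (unique molecular identifiers, each standing for 1 captured RNA molecule), at least 3 UMIs of Pecam1, Cdh5, Egfl7 and Emcn together and at least 2 of Flt1 and Kdr. It had no UMI of Selp, Sele, Ackr1, Mmrn1, Prox1 or Ptprc, under 5 of Ccl21a, and under 0.5% of its UMIs from Col1a1 and Col1a2. The members were thus chosen by their raw UMIs of these 15 genes, whose values support nothing below. The rule found 201 barcodes in the control library and 753 in the JQ1 library, out of 25987 in the whole series and 2883 that met its cell filter and its endothelial, collagen and Ptprc terms. The tumours were squamous cell carcinomas induced with the carcinogen 4NQO in wild type C57BL/6 mice, which then received control or JQ1, an inhibitor of the BET bromodomain proteins, for 10 days. Both groups therefore carried 4NQO-induced tumours and differed by label only in JQ1. The labels used here do not say how many mice each library came from. Each treatment had 1 library, so no value below has a replicate or a test, and intervals (95%) cover counting error only. They are exact, except those of differences between 2 shares, which follow Newcombe's approximate method.

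Endothelial cells line all vessels, and their transcript programme changes along the vascular tree. Flt1 and Kdr encode receptors for VEGF, the main growth signal of blood endothelium; Selp, Sele and Ackr1 mark the venules where leukocytes leave the blood; Prox1, Mmrn1 and Ccl21a mark lymphatics. In tumours, VEGF drives tip cells that lead new sprouts, Notch signalling restrains neighbouring cells from the same state, and interferon makes endothelial cells present antigen and secrete chemokines.

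Barcodes lay on both sides of the limits without a gap. Of the members, 34 control and 121 JQ1 barcodes had 2 or 3 UMIs of Flt1 and Kdr together, and 95 and 389 had 10 or more. A further 26 control and 61 JQ1 barcodes met every other term but had 1 such UMI, and 16 and 84 were outside only through a single UMI of Selp, Sele or Ackr1. Members had a median of 3120 UMIs and 1515 genes in control and 3517 UMIs and 1677 genes in JQ1, and a median mitochondrial share of 2.25% and 2.68%. They summed to 1076615 and 3745270 UMIs, so that JQ1 levels were known more closely than control levels. The libraries had 40 barcode sequences in common, of which 1 control and 3 JQ1 barcodes were members.

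Some members also carried transcripts of other cell types. Barcodes with at least 1% of UMIs from keratin, mucous gland, stromal or haemoglobin genes are called mixed below, a limit set after the data were seen. Its gland term counted only Muc5b, Bpifb2 and Agr2, so barcodes rich in other gland RNA stayed among the unmixed. In control, 17 of 201 members were mixed through keratins and 1 through gland genes; these 18 had a median of 19047 UMIs and held 37.2% of all UMIs of the control members. In JQ1, 28 of 753 were mixed through gland genes, 16 through haemoglobin, 13 through stromal genes and 11 through keratins, and these 68 held 22.8% of UMIs. The summed level of 10 keratinocyte markers was 13781 in control and 2189 in JQ1, in UMIs per 1000000 (CPM), and 594 and 407 without the mixed barcodes. For 7 salivary gland markers the sums were 89.2 and 6510 (38.5 and 622 without), and for 5 erythroid markers 15.8 and 12091 (25.2 and 420 without). The fibroblast markers summed to 49.2 and 721 (29.6 and 547 without), with Col1a2, Lum, Pdgfra and Dpt at 0 in control. Pericyte markers summed to 79.9 and 269 (104 and 141 without), smooth muscle markers to 49.2 and 377 (28.1 and 137 without), and immune markers to 451 and 237 (269 and 174 without), with Ptprc at 0 by the rule. Schwann markers summed to 37.1 and 97.2 (51.8 and 89.2 without) and skeletal muscle markers to 0 and 290 (0 and 15.2 without). Lists are therefore compared between treatments over all members and again without the mixed barcodes, and for single genes "without" marks the second value. Levels are CPM, the UMIs of a gene per 1000000 UMIs summed over a group of barcodes; since the kit reads transcript ends, levels are compared within a gene only.

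The defining markers did not all set the members apart from venular barcodes, which had at least 1 UMI of Selp, Sele or Ackr1 and numbered 246 in control and 941 in JQ1. Flt1 and Kdr, which the rule used, stood at 1693 and 675 CPM in control members and 1796 and 828 in JQ1 members, against 837 and 334 in control venular and 952 and 359 in JQ1 venular barcodes. Plvap, the diaphragm protein of fenestrated and caveolated endothelium, was at 1078 and 970 in members and at 1130 and 1048 in venular barcodes. Emcn, an endothelial sialomucin that the rule also used, was at 718 and 587 in members and at 981 and 723 in venular barcodes. Car4, a carbonic anhydrase anchored to the luminal surface of many capillaries, was at 9.29 and 8.01 in members, which is 10 and 30 UMIs. It was higher in venular barcodes, at 88.9 and 14.3, and in lymphatic barcodes (at least 5 UMIs of Ccl21a or 1 of Mmrn1 or Prox1), at 444 and 66.8. Few barcodes carried Car4 when mixed ones were left out and each was thinned to 1000 UMIs. In control it was then in 1 of 175 members and 8 of 224 venular barcodes. In JQ1 it was in 5 of 661 members (0.76%) and 4 of 855 venular barcodes (0.47%). By that share, Car4 was not higher in JQ1 venular barcodes. The Plvap, Emcn and summed Car4 levels thus went in part against the name capillary-type, and the barcodes are called Flt1/Kdr-gated members below.

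**Figure D1:**
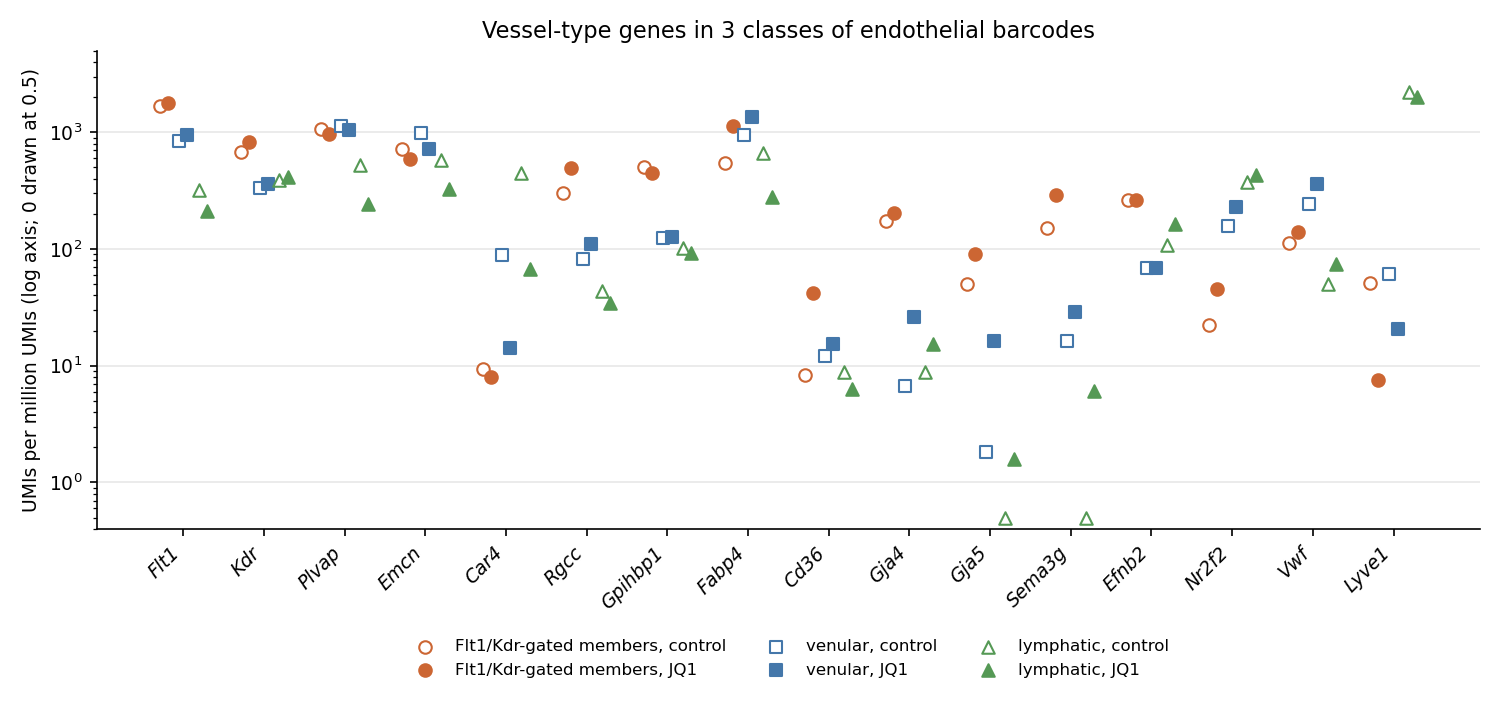
Summed level of 16 vessel-type genes in CPM (log axis; a level of 0 is drawn at 0.5) in Flt1/Kdr-gated members, venular and lymphatic barcodes; open symbols are the control library and filled symbols the JQ1 library. Gja4, Gja5, Sema3g and Efnb2 lie above the venular values in both libraries, Plvap and Emcn lie beside or below them, and Car4 is lowest in the members. The sums include mixed barcodes and are not at equal depth per barcode. Without mixed barcodes and at equal depth, the share of JQ1 barcodes with Car4 was not lower in members than in venular barcodes.

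Beside the venular barcodes, the members were set apart by arterial genes. Because the rule chose both classes, these values are a description. Of 5696 genes measured well enough in all 4 sums, 225 (3.95%) were at least 1.5-fold higher and 139 (2.44%) at least 1.5-fold lower in members in both libraries, 6.39% in either direction. From the arterial list, 15 of 17 genes were higher in both and 0 lower, with a median log2 difference of 1.93 in control and 1.43 in JQ1, where all genes had 0.06 in each. The gap-junction genes Gja4 and Gja5 were 26.0-fold (14.2 to 52.9) and 27.6-fold (8.97 to 138) higher in control and 7.80-fold (6.60 to 9.27) and 5.62-fold (4.51 to 7.05) higher in JQ1. Sema3g, a secreted semaphorin of arterial endothelium, was 9.33-fold higher in control and 10.1-fold in JQ1, and Efnb2, the arterial ephrin, 3.82-fold and 3.81-fold. The chemokine Cxcl12 was 16.5-fold and 5.97-fold higher, and Cldn5, a tight-junction claudin that is on the pan-endothelial list, 9.63-fold and 7.72-fold. From the Notch list, 7 of 10 genes were higher in both, among them the ligands Dll4 (2.29-fold and 2.22-fold) and Jag2 (2.94-fold and 2.98-fold), the receptor Notch4 (2.38-fold and 2.71-fold) and the target Nrarp (2.59-fold and 2.09-fold).

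The capillary list leaned higher in members but was not uniform. Of its 14 measured genes outside the rule, 7 were higher in members in both libraries (background 3.95%) and 1 was lower (background 2.44%). Its median log2 difference was 0.65 in control and 0.70 in JQ1, where all genes had 0.06 in each. Gpihbp1, which carries lipoprotein lipase to the capillary lumen, was 4.09-fold and 3.54-fold higher; Rgcc was 3.67-fold and 4.47-fold, Btnl9 8.70-fold and 10.6-fold, Podxl, an apical sialomucin, 2.32-fold and 2.61-fold, and Cd300lg 2.26-fold and 1.98-fold higher. The gene lower in both was Meox2, a transcription factor of endothelial fatty acid transport, at 2.14-fold and 2.27-fold more in venular barcodes. Fabp4, a fatty acid binding protein, was 1.75-fold (1.59 to 1.92) higher in venular barcodes in control and 1.19-fold (1.14 to 1.23) in JQ1. Of 12 venous genes, 0 were higher and 8 lower in members. Nr2f2, the transcription factor of venous identity, was 7.08-fold and 5.13-fold higher in venular barcodes, the gp130 receptor subunit Il6st 4.35-fold and 4.26-fold, the leukocyte adhesion molecules Vcam1 3.52-fold and 3.48-fold and Icam1 2.55-fold and 2.91-fold, and the cytokine Csf3 11.5-fold and 21.6-fold. Without the mixed barcodes, 288 genes (5.63%) were higher and 146 (2.85%) lower in both libraries (8.49% together), with 13 of 15 arterial genes higher, 7 of 14 capillary genes higher and 1 lower, and 8 of 11 venous genes lower.

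**Figure D2:**
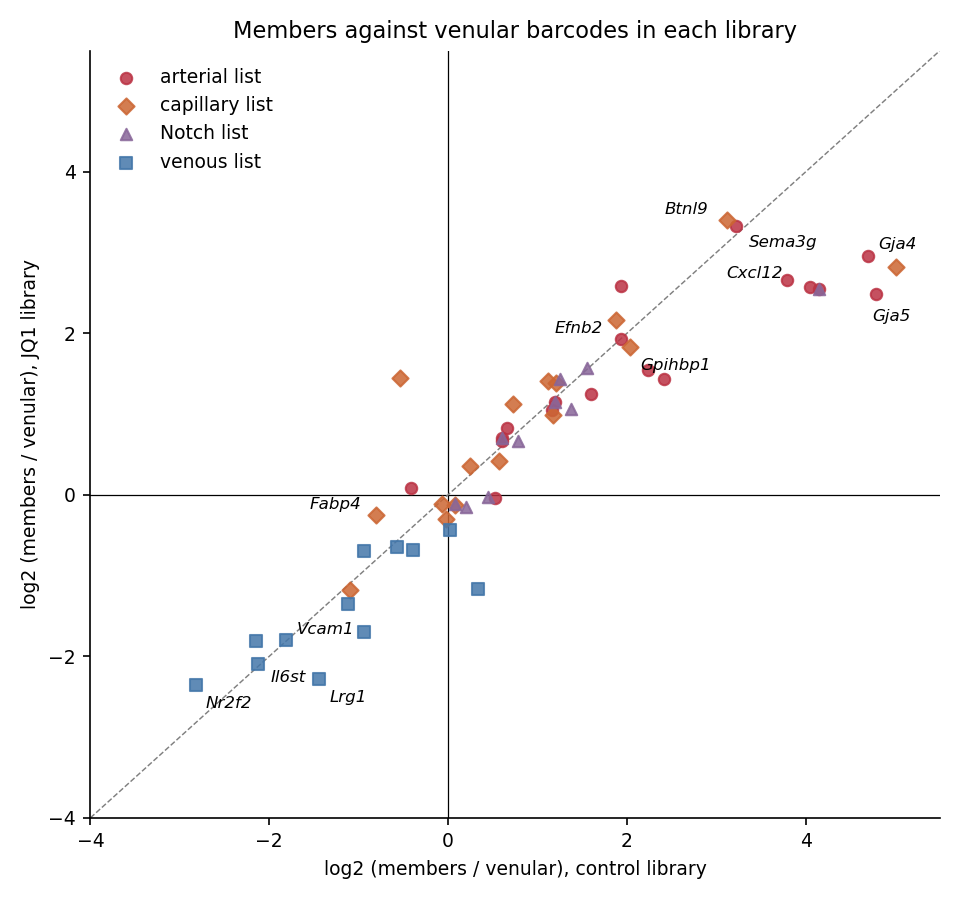
Log2 ratio of members to venular barcodes in the control library (x axis) and the JQ1 library (y axis) for the measured genes of 4 lists; the dashed line marks equal ratios. Arterial and Notch genes lie mostly to the upper right, venous genes mostly to the lower left, and capillary genes on both sides, with Fabp4 below 0 in both libraries.

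Against lymphatic barcodes (50 in control and 492 in JQ1), 363 of 4263 genes (8.52%) were higher and 236 (5.54%) lower in both libraries, and without mixed barcodes 419 of 3329 (12.6%) were higher and 210 (6.31%) lower. Over all members, of 14 capillary genes 11 were higher in members and 1 lower, of 16 arterial genes 12 were higher and 1 lower, and of 9 lymphatic genes outside the rule 9 were lower. Lyve1, the hyaluronan receptor of lymphatic endothelium, stood at 2222 and 2021 CPM in lymphatic barcodes and at 51.1 and 7.48 in members. Ly6c1, which capillary and arterial endothelium of mice carries, was 11.6-fold higher in members in control and 13.6-fold in JQ1.

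Clustering the 868 unmixed members, with interferon and MHC genes kept out of the clustering, gave 5 groups; their defining genes describe them and their sizes are not compared between libraries. An arterial-like group of 236 barcodes (44 control, 192 JQ1) had 13 arterial markers and was led by the elastic fibre genes Fbln5, Mgp and Eln with Gja5 and Sema3g. Gja4 was at 699 CPM there and at 66.4 in the other members. A tip-like group of 122 (25 and 97) had 10 tip cell markers; Apln, the apelin peptide of sprouting endothelium, was at 585 against 24.9 in the others, and Angpt2, the angiopoietin that loosens vessels, at 757 against 36.7. A capillary-like group of 62 (3 and 59) had 9 capillary markers, with Fabp4 at 10073 against 857, the fatty acid transporter Cd36 at 399 against 25.9 and Gpihbp1 at 1305 against 557. A group of 232 (65 and 167) led by Itih5, Colgalt2 and Chrm2 had Cd300lg, Btnl9 and Aqp1 as its 3 capillary markers, none of which was among its 10 leading genes, and was left unnamed. The last group of 216 (46 and 170) was led by the gland genes Amy1 and Bpifb1, with Amy1 at 7427 CPM against 175 in the others, and was left unnamed too. That group had a median of 2420 UMIs and no capillary or arterial marker. It had 1 venous marker, Nr2f2, at 75.6 against 34.0, and 1 tip cell marker, Ramp3. Bpifb1 stood there at 8352 against 274, and Lipf, another leading gene, at 21913 against 798. The limit for mixed barcodes did not count these genes. Values without mixed barcodes therefore still include this gland RNA.

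Members made up 2.43% (2.11 to 2.79) of the 8269 kept control barcodes and 5.21% (4.85 to 5.58) of the 14468 kept JQ1 barcodes. Within the 554 and 2329 endothelial barcodes they were 36.3% (32.3 to 40.4) and 32.3% (30.4 to 34.3), a difference of -3.95 percentage points (-8.44 to 0.40) that was within counting error. With each barcode thinned to 2000 UMIs before the rule was applied the shares were 34.2% and 30.2%, a difference of -3.98 points (-9.31 to 1.10), and without mixed barcodes 37.1% and 32.5%, a difference of -4.67 points (-9.44 to -0.05). Lymphatic barcodes were 9.03% of the endothelial barcodes in control and 21.1% in JQ1. Among the members and venular barcodes alone, members were 44.97% (201 of 447) and 44.45% (753 of 1694).

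Between JQ1 and control members, interferon and antigen presentation genes were higher in JQ1 and, with mixed barcodes left out, several angiogenic and basement membrane genes lower. Over all 6307 genes with at least 50 UMIs and a mean of 20 CPM, 801 (12.7%) were at least 1.5-fold higher in JQ1 and 438 (6.94%) at least 1.5-fold lower, and the median log2 difference was 0.08. Higher genes were 64.6% of these, and 53.7% (578 against 499) with the keratin-mixed barcodes left out and 52.2% (631 against 577) with median-of-ratios size factors. Without all mixed barcodes, 496 of 6235 genes (7.96%) were higher and 384 (6.16%) lower, with a median of -0.003.

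The interferon response list had the largest median among the lists whose values are plotted below. Of its 27 measured genes 22 (background 12.7%) were higher in JQ1 and 0 lower, with a median log2 difference of 1.26; without mixed barcodes 17 of 28 (background 7.96%) were higher and 0 lower, with a median of 0.96. In venular barcodes the same list, without mixed barcodes, had a median of 0.59, with 13 of 25 genes higher (background 5.99%) and 2 lower (background 2.66%); the difference between the classes has no replicate and was not tested. Many of these genes are switched on through the interferon-stimulated response element, whose core repeats GAAA at a spacing of 2 bases. The promoters of 5 of them are shown because their levels are given next and their windows differ in this motif. Each line is the 250 bases before the RefSeq transcription start in the GRCm38.p6 build, 5′ to 3′ on the gene's strand, and capitals mark every match to GAAA, any 2 bases and GAAA on either strand (TTTC, any 2 bases and TTTC where the match is on the opposite strand).

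Gbp2: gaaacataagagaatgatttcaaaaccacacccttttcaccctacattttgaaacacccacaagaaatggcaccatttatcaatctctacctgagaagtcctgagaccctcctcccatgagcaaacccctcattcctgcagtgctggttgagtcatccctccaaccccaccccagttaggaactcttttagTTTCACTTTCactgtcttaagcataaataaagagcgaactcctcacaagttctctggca
Igtp: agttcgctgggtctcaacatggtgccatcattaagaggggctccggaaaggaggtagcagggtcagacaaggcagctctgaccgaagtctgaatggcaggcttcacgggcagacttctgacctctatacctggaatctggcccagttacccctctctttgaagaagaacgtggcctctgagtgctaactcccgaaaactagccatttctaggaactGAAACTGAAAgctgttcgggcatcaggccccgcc
Isg15: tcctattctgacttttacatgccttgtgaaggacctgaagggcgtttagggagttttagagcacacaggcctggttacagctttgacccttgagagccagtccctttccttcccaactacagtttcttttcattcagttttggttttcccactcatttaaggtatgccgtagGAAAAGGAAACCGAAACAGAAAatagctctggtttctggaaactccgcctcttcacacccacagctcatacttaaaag
Rsad2: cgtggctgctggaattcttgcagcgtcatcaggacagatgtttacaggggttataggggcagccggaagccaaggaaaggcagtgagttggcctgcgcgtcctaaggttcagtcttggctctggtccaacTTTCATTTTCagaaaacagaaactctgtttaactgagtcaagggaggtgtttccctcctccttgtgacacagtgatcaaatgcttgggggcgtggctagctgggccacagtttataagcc
Cxcl9: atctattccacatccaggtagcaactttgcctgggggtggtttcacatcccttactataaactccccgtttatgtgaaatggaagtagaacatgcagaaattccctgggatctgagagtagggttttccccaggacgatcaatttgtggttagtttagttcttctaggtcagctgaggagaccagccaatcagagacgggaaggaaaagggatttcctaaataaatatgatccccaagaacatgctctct

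The windows lie at chr3:142620413-142620662 (plus strand) for Gbp2, chr11:58199306-58199555 (plus) for Igtp, chr4:156200819-156201068 (minus) for Isg15, chr12:26456453-26456702 (minus) for Rsad2 and chr5:92328080-92328329 (minus) for Cxcl9. Igtp had 1 match on its own strand and Gbp2 and Rsad2 had 1 each on the opposite strand. Isg15 had 3 overlapping matches on its own strand, and the Cxcl9 window had 0. Of the 27 measured interferon genes 20 had a window, of which 12 (60.0%) held the motif, against 158 of 4973 measured genes (3.18%) and 978 of all 32851 windows (2.98%). In the MHC class I list it was in 3 of 20 windows, and in the tip cell list in 0 of 15. A match describes the letters only, and a window without one says nothing of which factors act on the gene.

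Interferon-inducible GTPases act against intracellular pathogens. Of the 7 on the interferon list (Gbp2, Gbp3, Gbp4, Gbp7, Igtp, Irgm1 and Iigp1, grouped after their values were seen), 7 were at least 1.5-fold higher over all members (background 12.7%). Without mixed barcodes 6 were (background 7.96%), and Irgm1 was 1.46-fold higher. Gbp2 stood at 47.4 CPM in control members and at 273 in JQ1 members, 5.76-fold higher (4.34 to 7.78), and 4.37-fold (3.28 to 5.92) without mixed barcodes. Igtp was at 13.9 and 76.6, 5.5-fold higher (3.28 to 9.96) and 4.00-fold without. Gbp7 was at 25.1 and 91.6, 3.65-fold higher and 2.96-fold without. Iigp1 was at 151 and 363, 2.40-fold higher (2.04 to 2.84) and 1.98-fold without. Barcodes outside the endothelial pool also had more of these transcripts in the JQ1 library, Gbp2 at 17.4 and 74.9 and Iigp1 at 11.9 and 65.4; whether such RNA entered the members' droplets was not tested. Counted as barcodes with at least 1 UMI after thinning to 1000 UMIs, Gbp2 was found in 6.29% of 175 control and 13.9% of 661 JQ1 unmixed members (14.8% and 26.9% unthinned). In barcodes gated as fibroblasts, with at least 1% collagen UMIs and no pan-endothelial UMI, it was in 1.89% of 53 and 4.65% of 258. Median depths were 2957 and 3266 UMIs for members and 10605 and 7460 for the fibroblast gate, and thinning left out 8 control and 24 JQ1 members. Iigp1 was in 13.7% and 29.8% of the thinned members (25.7% and 44.4% unthinned) and in 1.89% and 10.1% of the fibroblast gate.

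The other genes of the list included chemokines, antiviral genes and transcription factors. The chemokine Cxcl9, a ligand of Cxcr3, was at 23.2 CPM in control members and at 185 in JQ1 members, 7.98-fold higher (5.36 to 12.4) and 10.7-fold (5.92 to 21.5) without mixed barcodes. Its control value without them rested on 11 UMIs in 5 barcodes, against 503 UMIs in 68 barcodes in JQ1, and its share of thinned JQ1 members, 6.81% (9.93% unthinned), was below the 11.6% of the JQ1 fibroblast gate. By that share, Cxcl9 in JQ1 members was not above the fibroblast gate. In control the share was 2.86% in members and 1.89% in the gate, which was 1 of 53 barcodes. Whether the gate's Cxcl9 came from its own cells, and the source of Cxcl9 in members, was not tested. In venular barcodes Cxcl9 stood at 175 in control and 184 in JQ1. Cxcl10, another ligand of that receptor, was at 96.6 and 271 in members, 2.81-fold higher and 3.23-fold without mixed barcodes, with 197 and 268 outside the pool. The Cxcl10 share of thinned members was 4.57% and 7.26% (6.01% and 13.9% unthinned). It lay below the 5.66% and 11.2% of the fibroblast gate, so by that share it was not above the gate in either library. The source of Cxcl10 in members was not tested either. Rsad2, an antiviral enzyme, was at 12.1 and 66.0, 5.46-fold higher (3.13 to 10.4) and 2.57-fold without mixed barcodes. Isg15, a ubiquitin-like modifier, was at 36.2 and 82.2, 2.27-fold higher (1.62 to 3.25) and 1.52-fold (1.08 to 2.20) without; in venular barcodes it was at 58.1 and 57.4. Of the transcription factors that carry the response, Irf7 was at 14.9 and 53.4, 3.59-fold higher (2.16 to 6.41) and 2.74-fold without, and Irf1 was at 289 and 344, a ratio of 1.19 and of 1.04 without. Ly6e was at 543 and 1088, 2.002-fold higher (1.84 to 2.19) and 1.80-fold without. Ly6a was at 1420 and 2324, 1.64-fold higher, and 1.42-fold, under the 1.5-fold limit, without mixed barcodes. Ifitm3 was at 1675 and 2043, a ratio of 1.22 and of 1.08 without.

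The interferon difference was spread over the members. At 1000 UMIs per barcode the list gave a median of 6 UMIs in unmixed control members (quartiles 4 and 10) and 9 in JQ1 members (6 and 13). Without the 10% of barcodes with the most such UMIs the means were 6.21 and 8.51. In venular barcodes the medians were 9 and 10. Within the groups of members, the list's median log2 difference was 0.67 in the arterial-like group (12 of 20 genes higher, against 13.7% of all genes measured in that group). It was 1.28 in the tip-like group (13 of 16 higher, against 16.3%), 0.43 in the Itih5-led group (7 of 18, against 11.2%) and 1.25 in the Amy1-led group (9 of 14 higher, against 10.9%, and 1 lower, against 16%). In the other 3 of these groups 0 were lower, where 9.89%, 11.2% and 6.55% of all genes were. The capillary-like group had 3 control barcodes and is not counted.

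**Figure D3:**
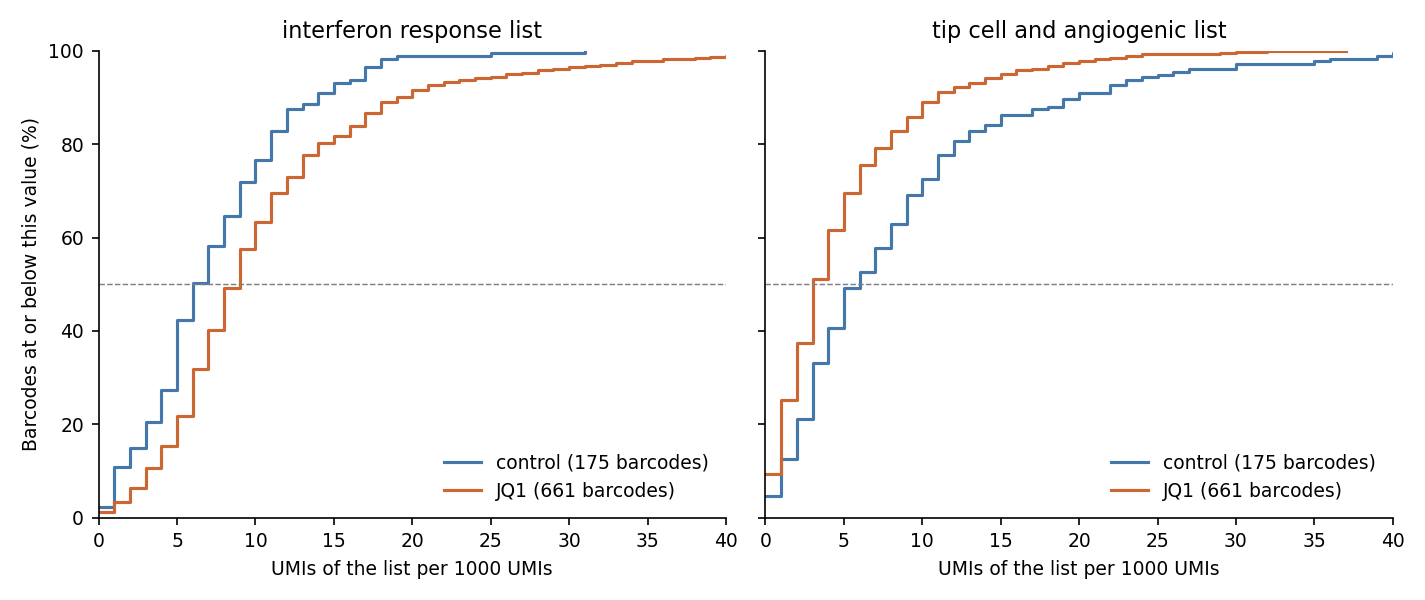
Share of unmixed members (y axis, percent) at or below a given number of UMIs of the interferon response list (left) and of the tip cell and angiogenic list (right), each barcode thinned to 1000 UMIs; lines are the 175 control and 661 JQ1 barcodes, and the dashed line marks the median. The interferon curve of the JQ1 library lies to the right of control along its length, and its tip cell curve lies to the left.

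Antigen presentation genes were higher alongside. Of 21 measured MHC class I pathway genes 15 were higher in JQ1 (background 12.7%) and 0 lower (median log2 0.78), and 8 were higher without mixed barcodes (background 7.96%, median 0.56), where venular barcodes had 4 of 21 (background 5.99%, median 0.38). The heavy chain H2-K1 was at 871 and 1825 CPM, 2.10-fold higher, and 1.84-fold (1.71 to 1.99) without mixed barcodes. H2-D1 was at 816 and 1410, 1.73-fold higher and 1.52-fold without, and the light chain B2m at 738 and 1278, 1.73-fold higher and 1.48-fold without. H2-Q7 (71.5 and 181) and H2-Q6 (54.8 and 153) were 2.52-fold and 2.79-fold higher, and 2.33-fold and 2.31-fold without; these near-identical copies can share reads, so that their split is uncertain. The peptide transporter Tap1 was at 44.6 and 76.1, 1.71-fold higher but 1.46-fold, under the limit, without. Of the immunoproteasome subunits, Psmb10 was at 24.2 and 57.1, 2.37-fold higher and 2.06-fold without. Psmb8 was at 87.3 and 152, 1.74-fold higher but 1.47-fold, under the limit, without, and the proteasome activator Psme2 was at 112 and 98.8. All 4 measured MHC class II genes were higher (background 12.7%), H2-Ab1 at 37.2 and 71.0, Cd74 at 58.5 and 102, H2-Aa at 13.9 and 32.6 and H2-Eb1 at 17.7 and 41.7. Without mixed barcodes 3 of 4 were higher (background 7.96%). Class II transcripts lay in few control barcodes: without mixed barcodes H2-Aa came from 4 and H2-Eb1 from 3, Cd74 was 1.39-fold higher, and outside the pool the 4 genes stood at 59.0 to 108 in control and 119 to 193 in JQ1. Cd274, which encodes the checkpoint ligand PD-L1 and stands on no list here (it ranked among the 15 highest genes once mixed barcodes were left out), was at 30.7 and 74.5, 2.43-fold higher (1.69 to 3.60) and 2.16-fold without mixed barcodes.

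**Figure D4:**
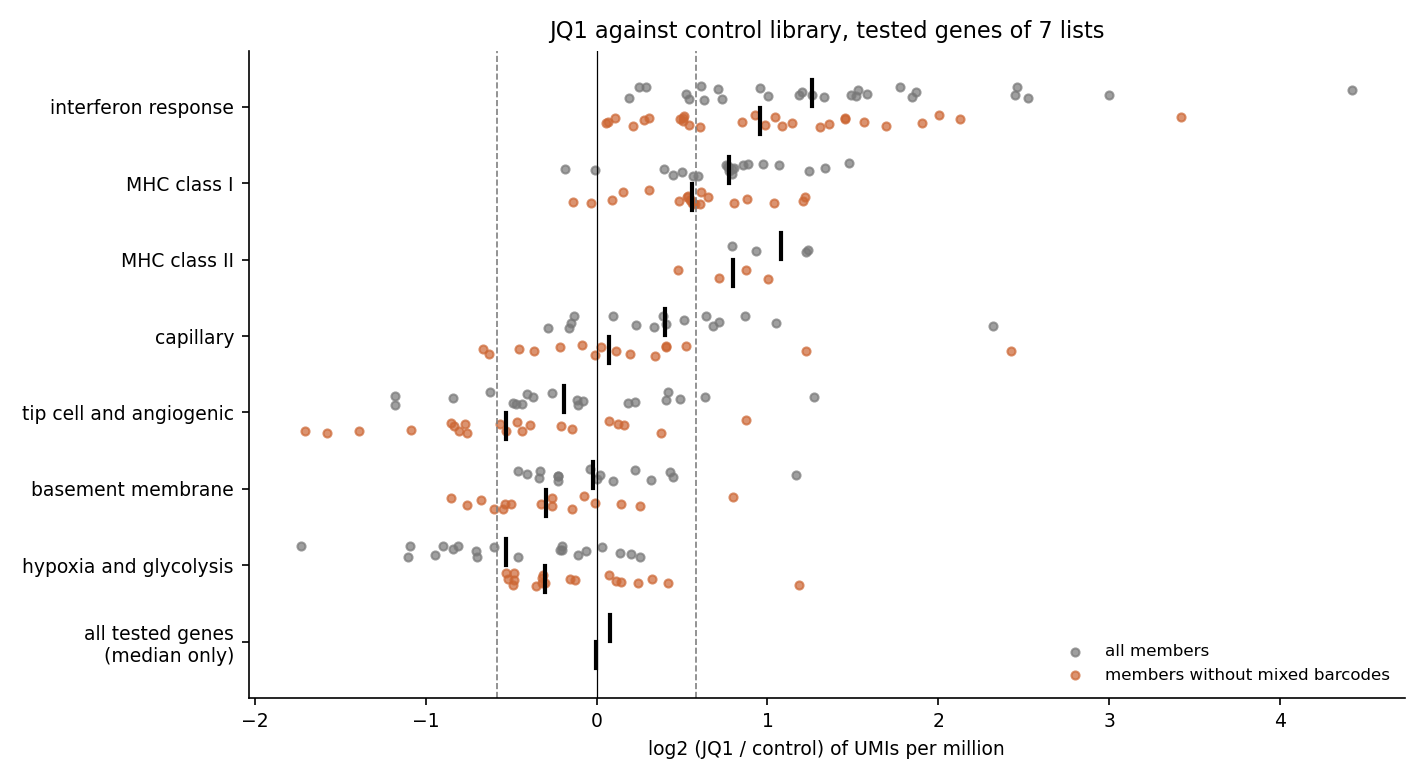
Log2 ratio of JQ1 to control for the measured genes of 7 lists, over all members (grey) and without mixed barcodes (orange); each point is a gene, black bars are medians, and dashed lines mark 1.5-fold. Interferon genes lie to the right of 0 in both versions, while the medians of the capillary and tip cell lists move left when mixed barcodes are left out.

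Genes of tip cells and sprouting were lower in JQ1 once mixed barcodes were left out. Over all members, 2 of 20 measured genes were higher (background 12.7%) and 4 (background 6.94%) lower, with a median log2 of -0.19. Without mixed barcodes 1 of 21 was higher (background 7.96%) and 9 (background 6.16%) lower, with a median of -0.53. Venular barcodes, also without mixed ones, had 1 of 20 higher (background 5.99%) and 8 lower (background 2.66%), with a median of -0.45. Igfbp3, a secreted binding protein of insulin-like growth factors, was at 3425 CPM in control members and at 1512 in JQ1 members, 2.27-fold lower (2.17 to 2.36) and 2.62-fold without mixed barcodes. The 5 control barcodes with the most Igfbp3 held 31.5% of its UMIs, and at 1000 UMIs per barcode it was found in 65.1% of control and 50.2% of JQ1 members (78.7% and 65.7% unthinned). The fibroblast gate had it in 41.5% and 13.95%, so it was also read in barcodes without pan-endothelial UMIs. Aplnr, the apelin receptor, was at 38.1 and 16.8, 2.26-fold lower (1.49 to 3.41) and 2.98-fold without mixed barcodes. The potassium channel subunit Kcne3 was at 47.4 and 36.6, 1.30-fold lower, and 2.12-fold (1.47 to 3.01) without. Cxcr4, the receptor of Cxcl12, was at 108 and 77.7, and 1.78-fold lower (1.42 to 2.22) without. These 3 genes were concentrated: without mixed barcodes, 5 control barcodes held 48.7% of the Aplnr, 49.0% of the Kcne3 and 55.65% of the Cxcr4 UMIs. In JQ1 the 5 highest barcodes held 32.1%, 36.4% and 28.6%. The adhesion molecule Mcam was at 568 and 421, and 1.70-fold lower without, and Ramp3, a co-receptor of adrenomedullin, was at 130 and 84.4, 1.54-fold lower and 1.81-fold without.

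Other sprouting genes stayed within the 1.5-fold limit or were higher. Esm1, a secreted proteoglycan that VEGF induces, was at 295 and 274, a ratio of 1.08 (0.95 to 1.23), and 1.36-fold lower without mixed barcodes. The Notch ligand Dll4 was at 371 and 342, a ratio of 1.08, and 1.31-fold lower without. Apln was at 107 and 142, 1.33-fold higher and 1.05-fold without. Angpt2 was higher, at 83.6 and 202, 2.42-fold (1.94 to 3.04) and 1.83-fold without mixed barcodes, where 5 control barcodes held 64.4% of its UMIs. In the tip-like group alone, 2 of 18 tip genes were higher and 7 lower (median 0.02), where 16.3% of all genes in that group were higher and 11.2% lower. In the arterial-like group 0 of 9 were higher and 5 lower (median -0.66), where 13.7% and 9.89% of all genes were. At 1000 UMIs, the list gave a median of 6 UMIs in control members and 3 in JQ1 members, and the top 10% of barcodes began at 19.6 and 11. In venular barcodes the medians were 2 and 1.

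Basement membrane genes had a median log2 of -0.02 over all members and of -0.29 without mixed barcodes, when 1 of 16 was higher (background 7.96%) and 4 lower (background 6.16%). The linker proteins Nid1 (253 and 184) and Nid2 (171 and 129) were 1.80-fold (1.56 to 2.09) and 1.69-fold lower without mixed barcodes, and the laminin chain Lamc1 (204 and 162) 1.60-fold lower. Col4a1, the main collagen of this layer, was at 1329 and 1137, 1.17-fold lower and 1.46-fold without. The gene higher in JQ1 was Itga1, a collagen-binding integrin, at 97.5 and 219, 2.25-fold (1.83 to 2.78) and 1.74-fold without. Of 9 measured junction genes 1 was higher over all members (background 12.7%), and without mixed barcodes 0 were past 1.5-fold in either direction (background 14.1%).

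The capillary list as a whole depended on the mixed barcodes. Over all members 6 of its 16 measured genes outside the rule were higher (background 12.7%) and 0 lower (background 6.94%), with a median log2 of 0.40. Without mixed barcodes 2 were higher (background 7.96%) and 2 lower (background 6.16%), with a median of 0.07. The fatty acid uptake list had 4 of 7 genes higher (background 12.7%) and 1 lower (background 6.94%) over all members (median 0.87). Without mixed barcodes 3 of 8 were higher (background 7.96%) and 2 lower (background 6.16%), with a median of 0.38. The capillary-like group, in which Fabp4 and Cd36 were high, held 3 control and 59 JQ1 barcodes; its part in the next values was not tested. Fabp4 was at 546 CPM in control and 1132 in JQ1, 2.07-fold higher (1.90 to 2.26) and 2.34-fold (2.11 to 2.60) without mixed barcodes, and Cd36 was at 8.36 and 41.7, 4.98-fold higher (2.56 to 11.1) and 5.37-fold without. Lpl, the lipoprotein lipase of the fatty acid list, was at 20.4 and 67.6, 3.31-fold higher (2.14 to 5.37) and 7.38-fold (3.52 to 18.6) without, with 11.2 and 57.4 outside the pool. Few control barcodes carried these transcripts: without mixed barcodes 5 of them held 61.6% of the Fabp4 UMIs, and Cd36 was seen in 4 and Lpl in 5. At 1000 UMIs, Fabp4 was in 14.3% of control and 28.1% of JQ1 members (18.03% and 35.6% unthinned), in 34.4% and 44.2% of venular barcodes, and in 0 of 53 (up to 5.66% by a limit of 3 counts) and 1.55% of the fibroblast gate. Rgcc was at 300 and 493, 1.64-fold higher, but 1.27-fold without mixed barcodes. Plvap was 1.11-fold lower in JQ1 (1.04 to 1.19) and 1.37-fold lower without mixed barcodes, Sparcl1 (880 and 723) 1.22-fold and 1.55-fold lower, and Gpihbp1 (504 and 452) 1.12-fold and 1.29-fold lower. Fabp5 went from 8377 to 605, but its level outside the pool was 11535 and 1964, and without mixed barcodes it was 1.58-fold lower.

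**Figure D5:**
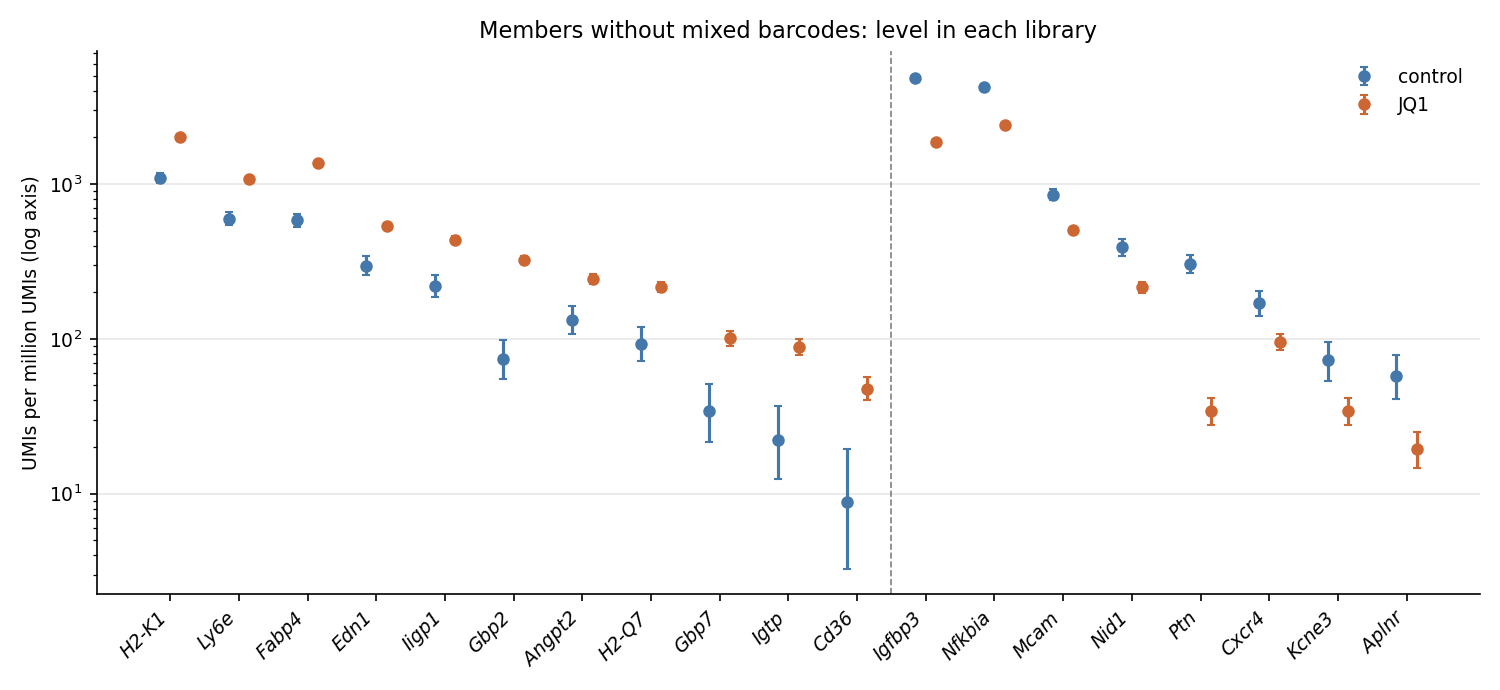
Level of 19 named genes in CPM (log axis) in members without mixed barcodes, for the control and JQ1 library; bars are exact 95% Poisson intervals of the count. Genes left of the dashed line are higher in JQ1, such as Gbp2 and Fabp4, and genes right of it are lower, such as Igfbp3 and Nid1.

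Arterial genes were mostly level, with 5 of 18 higher (background 12.7%) and 0 lower (background 6.94%) over all members (median log2 0.20). Without mixed barcodes 3 were higher (background 7.96%), with a median of 0.02. The vasoconstrictor peptide Edn1 was at 194 and 445, 2.29-fold higher (1.98 to 2.66) and 1.80-fold (1.55 to 2.09) without mixed barcodes, and Sema3g was at 152 and 289, 1.90-fold higher and 1.59-fold without. Gja5 was at 50.2 and 91.3, 1.82-fold higher and 1.85-fold without, whereas Gja4 was at 173 and 203, a ratio of 1.17 (0.998 to 1.39) and of 1.05 without. The Notch list had 0 of 10 genes higher (background 12.7%) and 1 lower (background 6.94%) over all members, with a median of 0.08. Without mixed barcodes it had 0 of 10 higher (background 7.96%) and 1 lower (background 6.16%), with a median of -0.03. The flow response list had 0 of 7 in either direction over all members (background 19.6%), with a median of 0.19. Without mixed barcodes it had 0 of 8 (background 14.1%), with a median of -0.09. From the BMP and TGF-beta list 4 of 15 were higher over all members (background 12.7%) and 3 of 15 without mixed barcodes (background 7.96%). They included the ligand Bmp4 at 17.7 and 43.8 (2.48-fold, and 2.10-fold without) and the target Id2 at 71.5 and 161 (2.26-fold, and 2.12-fold without). Cxcl12 was at 470 and 771, 1.64-fold higher, and 1.35-fold without mixed barcodes.

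The NF-kB list had 1 of 14 genes higher (background 12.7%) and 1 lower (background 6.94%) over all members. Its median was -0.12, where all genes had 0.08. Without mixed barcodes 2 of 14 were higher (background 7.96%) and 2 lower (background 6.16%), with a median of 0.06, where all genes had -0.003. Nfkbia, its feedback inhibitor, was at 3601 and 2084, 1.73-fold lower (1.66 to 1.80) and 1.76-fold without mixed barcodes, and the cytokine Il6 at 268 and 202, 1.32-fold lower and 1.62-fold without. The chemokines Ccl2 and Cxcl2 turned direction with the mixed barcodes. Ccl2 was 1.24-fold lower over all members (210 and 170) and 3.96-fold higher (2.69 to 6.08) without them. Cxcl2 was 1.5-fold lower (435 and 291) and 1.72-fold higher. Outside the pool Ccl2 stood at 722 and 660 and Cxcl2 at 1013 and 1224. Without mixed barcodes, Ccl2 was seen in 17 of 183 control and 66 of 685 JQ1 barcodes, and 5 barcodes held 55.6% and 52.4% of its UMIs. Cxcl2 was seen in 43 and 146 barcodes, and 1 JQ1 barcode held 198 of its 956 UMIs there. The list of BET proteins and genes responsive to BET inhibitors had 3 of 15 genes higher (background 12.7%) and 0 lower (background 6.94%) over all members. Its median was 0.03, where all genes had 0.08. Without mixed barcodes 2 of 15 were higher (background 7.96%) and 0 lower (background 6.16%), with a median of 0.17, where all genes had -0.003. Hexim1, an inhibitor of the elongation factor P-TEFb that BET inhibitors are known to raise, was at 73.4 and 138, 1.88-fold higher (1.48 to 2.41) and 1.67-fold without mixed barcodes. Myc was at 147 and 124, 1.18-fold lower (0.98 to 1.42) and 1.12-fold without.

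The glycolysis list differed between the versions with and without mixed barcodes. Over all members 0 of 20 were higher (background 12.7%) and 10 lower (background 6.94%) in JQ1, with a median log2 of -0.53. Without mixed barcodes 1 of 19 was higher (background 7.96%) and 0 lower (background 6.16%), with a median of -0.30. Pgk1 was 1.93-fold lower and 1.43-fold without, Ldha 1.87-fold and 1.23-fold, and Pgam1 2.15-fold and 1.28-fold. The ranking by the interval bound nearest to 1 was likewise led by genes of other cells: the lower genes began with Calm4, Gsta1, Spink5 and Ptgr1 and included Krt13 and Krt4, and the higher ones began with Agr2 and Bpifb2 and included Cxcl9, Gbp2, Igtp, Rsad2 and Gbp7. Repeated without mixed barcodes and with genes required at 2 times their level outside the pool, a ranking chosen after the values were seen, the higher genes began with Cxcl9, Gbp2, Igtp and Fabp4. The lower ones began with Ptn, a heparin-binding growth factor, at 237 and 35.2, 6.72-fold lower (5.43 to 8.36) and 8.91-fold without mixed barcodes, with 102 and 60.8 outside the pool, followed by Igfbp3. Without mixed barcodes, control Ptn rested on 206 UMIs in 32 of 183 barcodes, and 5 of these held 49.0% of them. Ptn was also a leading gene of the Amy1-led group, at 310 CPM against 29.4 in the other members.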

How the data were processed

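Single-cell RNA of 4NQO-induced tongue tumours was measured with the 10x 3' kit in 1 control and 1 JQ1 library. The authors deposited raw UMI counts per gene and barcode; per the submitters' processing notes the tools were Cell Ranger 3.1.0 with Seurat 4.0.0 on build mm10 (annotation release: not given in the sources used here). Of 31053 gene rows, those sharing 36 symbols were summed. Kept barcodes had 200 genes or more and a mitochondrial share under 20%. Doublets stayed in; an alternative removed Scrublet calls (1.44% of control and 2.93% of JQ1 barcodes, 9 and 30 of them members). UMIs were summed per class and scaled to CPM, with exact conditional intervals for ratios; a gene needed 50 UMIs over both libraries and a mean of 20 CPM. The members and gene lists were chosen with earlier results of these data known. Genes were named as list members or as the 15 per direction with the most extreme ratio, judged by its interval's end nearer to 1. Unmixed members were clustered by the Leiden method (1500 variable genes, 20 components, 15 neighbours, resolution 0.6, seed 0). Some single-gene results are not reported here. The ratio table was tested on simulated counts. Tools were scanpy 1.11.5, scikit-learn 1.9.0, igraph 0.11.9, leidenalg 0.10.2, scipy 1.17.1, numpy 2.4.6, pandas 2.3.3, matplotlib 3.10.9 and Python 3.11.15.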

Additional observations from a re-analysis of the deposited data

How the results depend on the processing

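No paired analysis was possible because each treatment had 1 library. The interferon list's median log2 difference (1.26) stayed between 0.85 and 1.32 under the alternatives tried, and the share of members over all endothelial barcodes stayed lower in JQ1, with differences of -2.96 to -4.67 points. The capillary list's median (0.40) was 0.14 with the rule applied at 2000 UMIs, -0.11 with keratin-mixed barcodes left out and 0.072 with all mixed barcodes left out. The tip cell list's median (-0.19) was -0.66 without keratin-mixed barcodes, -0.50 with each barcode weighted equally and -0.53 without mixed barcodes. Genes past 1.5-fold between libraries (1239) numbered 631 after thinning to 1000 UMIs, where fewer genes were measured, and 4181 with every gene of at least 1 UMI; against venular barcodes (364) the counts were 153 and 1049. Median-of-ratios size factors moved the share of higher calls against venular barcodes from 61.8% to 52.3%. Of 1174 values for 84 single genes under the alternatives, 893 stayed within counting error, 276 moved and 5 turned direction from a value past 1.5-fold: at 2000 UMIs the log2 difference was -0.26 for Cd74, 0.10 for Fabp5 and 0.064 for Hk2, and Hk2 was at 3.02 without keratin-mixed and 1.49 without all mixed barcodes. The cause of these changes was not tested. The depth of the control library limits low genes, such as Cd36 with 6 UMIs in unmixed control members.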
